A study of Homo sapiens with 9 samples.

Results

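The genes described here are 3 ERBB receptors (EGFR, ERBB2, ERBB3), 6 ligands of the EGF family (AREG, EREG, HBEGF, TGFA, BTC, NRG1) and the receptor inhibitor ERRFI1. All probe sets annotated to one of these 10 symbols and to no other gene were taken, which gave 35 of the 54675 probe sets on the array and 9 of the 10 genes. AREG was not analysed here, because the array annotation used here pairs no probe set with its symbol alone. Of the 35 probe sets 28 passed the filter on low signal, and each of the 9 genes had at least 1 that passed, against 12594 of 19775 genes in the whole table.

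Total RNA of 3 human breast cell lines of the MCF-10A series was measured on 1-colour Affymetrix arrays, 3 arrays per line. By their labels, MII (MCF-10AT1Kcl2) stands for carcinoma in situ, MIII (MCF-10A1h) for carcinoma and MIV (MCF-10A1a) for metastatic carcinoma. MCF-10A is an immortalised, non-tumorigenic breast epithelial line, and its derivatives used here were transformed with mutated HRAS, so no line without the oncogene was compared. All lines grew in the same DMEM/F12 medium with 20 ng/ml added epidermal growth factor, 5% horse serum, insulin at 10 µg/ml, cholera toxin at 0.1 µg/ml, hydrocortisone at 0.5 µg/ml and 1% penicillin/streptomycin. A ligand of EGFR was thus present in every culture, and each stage is represented by a single cell line, so stage and line cannot be told apart. Arrays of 1 line are labelled as biological replicates, with no word on separate cultures, so each p-value refers to the array-to-array spread, part or all of which may be technical.

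ERBB receptors are tyrosine kinases of the cell surface that pair up when an EGF family ligand binds and then signal through RAS and ERK and through PI3-kinase. ERBB2 has no known ligand of its own and ERBB3 has little kinase activity, so that each works mainly in pairs with other family members. The ligands are made as membrane proteins and released by metalloproteases. In breast epithelium, EGFR and its ligands drive growth of basal-type cells in culture, and ERBB2 is the receptor amplified in a class of breast cancers.

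Each array gives 1 MAS5 signal per probe set, on a linear scale. Precision is limited by having 3 arrays per line: the standard error of a log2 change had a median of 0.11 over the genes tested. Median signals ran from 69 to 71.7 in MII, from 72.1 to 74.9 in MIII and from 64.7 to 65.2 in MIV. One array stood apart in a hybridisation control: the bioB spike-in read 2128.4 on MIV replicate 3, whereas the remaining arrays lay between 652 and 956.6. Without that array, as many of the 9 genes were called in each comparison below. The 3′ to 5′ signal ratio of GAPDH, a sign of RNA integrity, was 1.06 to 1.16 in MII, 0.974 to 0.988 in MIII and 1.04 to 1.09 in MIV. As markers of epithelial cells, KRT5, KRT8, KRT18, CDH1 and EPCAM were bright in all lines, while KRT19 lay under the pooled median signal of 69.3 in each. KRT14, a basal keratin, averaged 2155 in MII, 957 in MIII and 137 in MIV, with MIV called below MII and below MIII. Of the markers of other cells, PTPRC (leukocytes), CDH5 and VWF (endothelium) and PDGFRA (fibroblasts) lay under that median on average in every line. PECAM1, also found on endothelium, was above it, with 174 in MII, 251 in MIII and 306 in MIV, and CD3E, a T cell marker, was close to it, with 92.5 in MII, 60.0 in MIII and 80.6 in MIV. CD14, a monocyte marker, averaged 1489.6 in MII, 594 in MIII and 323 in MIV.

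A gene is represented by its brightest probe set and is called here when limma, fitted to all 9 arrays and adjusted over the 12594 genes, gave an adjusted p under 0.05 together with a change of at least 2-fold. In MIV against MIII, 4 of the 9 genes were called higher (ERBB2, ERBB3, HBEGF and NRG1) and 0 lower, where 12.7% of all genes tested were called, 4.95% higher and 7.79% lower. At an unadjusted limma p under 0.05, 6 of the 9 were higher and 2 lower in that comparison. Set against MII, MIV had 2 genes called higher (EREG and NRG1) and 0 lower, where 8.14% of all genes were called, 2.96% higher and 5.18% lower; at an unadjusted p under 0.05 limma gave 4 higher and 2 lower. In MIII against MII, 1 was called higher (EREG) and 2 lower (ERBB2 and ERBB3), where 11.7% of all genes were called, 6.17% higher and 5.55% lower. Limma gave 3 higher and 5 lower there at an unadjusted p under 0.05. The share of all genes at an unadjusted p under 0.05 was not computed, so such counts, here and below, have no background beside them. That share cannot be below the adjusted shares given next. Small changes that passed the test were common in the whole table. Without the fold minimum, 8 of the 9 genes passed in MIV against MIII, where 51.9% of all genes did. The counts were 5 for MIV against MII, with 42.2% of all genes, and 7 for MIII against MII, with 47.2%. The median log2 change of the 9 genes was 0.29 for MIV over MIII (-0.012 for all genes tested), 0.13 for MIV over MII (-0.027) and -0.19 for MIII over MII (-0.016). Of the 28 probe sets, 8 were called higher and 0 lower in MIV against MIII, where 11.7% of all probe sets were called, 4.47% higher and 7.23% lower. For MIV against MII, 3 were called higher and 0 lower, with a background of 7.16%, 2.60% higher and 4.56% lower. For MIII against MII, 2 were called higher and 5 lower, with a background of 10.6%, 5.71% higher and 4.91% lower. These comparisons share arrays in pairs and are not independent of each other.

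**Figure D1:**
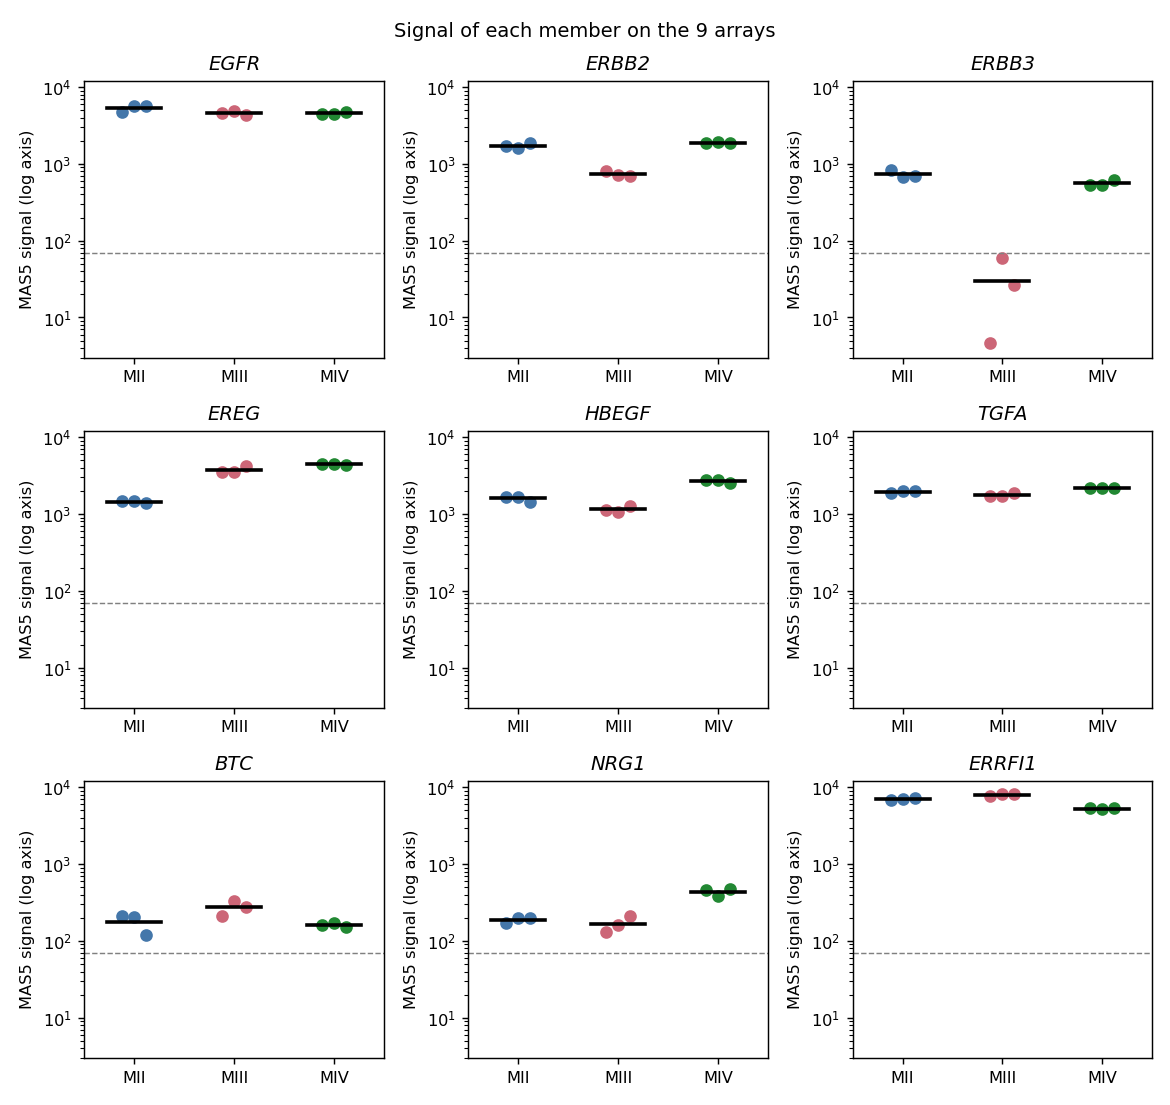
MAS5 signal (log axis) of the brightest probe set of each of the 9 genes on the 9 arrays; points are arrays, black bars the line means (n = 3), and the dashed line is the pooled median signal of 69.3. ERBB3 in MIII is the one case with all 3 arrays of a line under that median, and ERBB2 is lowest in MIII, HBEGF highest in MIV and EREG lowest in MII.

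ERBB3, the receptor that binds neuregulins and recruits PI3-kinase, was well measured in MII and MIV and near the floor in MIII. Its brightest probe set gave 836.5, 685 and 697.7 in MII, 4.6, 58.9 and 26.3 in MIII, and 534, 524.4 and 618.5 in MIV. All MIII arrays lay under the pooled median, and no array of MIII overlapped one of the other lines. ERBB3 was higher in MIV than in MIII by 3.75 ± 0.31 (SE) on the log2(signal + offset) scale, with an offset of 18.3 (limma adjusted p = 2.26e-07). Because MIII was at the floor, the ratio has only a bound, with the pooled median taken as the floor. On this probe set MIV was at least 8.04-fold higher than MIII. MIII fell against MII, with a log2 change of -4.14 ± 0.31 (limma adjusted p = 8.85e-08), and was at least 10.6-fold lower on the same probe set.

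Between MIV and MII, the 3 arrays of ERBB3 also did not overlap, with MIV below MII, but the log2 change of -0.39 ± 0.31 was not called (limma adjusted p = 0.346, 95% interval -1.06 to 0.28). A second probe set of ERBB3 gave 653.1, 517 and 619.5 in MII, 52.6, 58.3 and 57.4 in MIII, and 437.4, 459.6 and 483.8 in MIV. Its log2 change was 2.69 ± 0.13 in MIV against MIII and -3.04 ± 0.13 in MIII against MII (limma adjusted p = 1.5e-09 and 4.3e-10 over all probe sets). Of the 4 ERBB3 probe sets that passed the filter, 3 were called higher in MIV than in MIII and the same number lower in MIII than in MII. The fourth had 0.63 ± 0.26 in MIV against MIII. The size of the change depended on dim values: averaging all probe sets gave 2.29 and -2.62, and an offset of 1 gave 4.74 and -5.14, with the call kept.

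ERBB2, the partner receptor without a known ligand, was also lowest in MIII, with a smaller gap. Its signal was 1720.1, 1598.2 and 1849.8 in MII, 804, 709.4 and 700.5 in MIII, and 1848.5, 1924.5 and 1894.2 in MIV. MIII was below the other lines on every array, while MII and MIV overlapped. ERBB2 rose in MIV against MIII by 1.34 ± 0.08 in log2, or 2.53-fold (limma adjusted p = 4.62e-09), and fell in MIII against MII, with a log2 change of -1.20 ± 0.08 (limma adjusted p = 1.52e-08). For MIV against MII the log2 change was 0.13 ± 0.08 (limma adjusted p = 0.182), with a 95% interval from -0.03 to 0.30. Of its dimmer probe sets, 1 was also called in MIV against MIII (1.07 ± 0.33) and the other in MIII against MII (-1.17 ± 0.34). None of its probe sets is free of the suffixes that mark possible cross-hybridisation.

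EGFR, the receptor of EGF, TGFA, EREG, HBEGF and BTC, was bright in all lines and was called in none of the comparisons on any of its 7 probe sets that passed the filter. The brightest gave 4802.6, 5696.8 and 5654.7 in MII, 4667.9, 4829.8 and 4395.6 in MIII, and 4465, 4446 and 4775.9 in MIV. MIII and MIV overlapped, and the log2 change between them was -0.02 ± 0.07 (limma adjusted p = 0.824, 95% interval -0.17 to 0.12), a value whose sign turned to 0.02 on the brightest suffix-free probe set. Against MII, the log2 change was -0.23 ± 0.07 in MIV and -0.21 ± 0.07 in MIII (limma adjusted p = 0.0129 and 0.0188), short of 2-fold. The suffix-free probe set gave larger values, -0.57 ± 0.13 in MIV and -0.59 ± 0.13 in MIII (limma adjusted p = 0.00343 and 0.00209 over all probe sets), so the size of the EGFR difference from MII depends on the probe set. Another bright probe set differed in pattern, with 1256, 1124.9 and 1402.7 in MIV and 737, 743.4 and 696.9 in MIII. On it the log2 change of MIV against MIII was 0.78 ± 0.09 (limma adjusted p = 1.12e-05 over all probe sets), which is short of 2-fold, so the probe sets of EGFR disagree on that comparison.

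MIII, where ERBB2 and ERBB3 were lowest, also stood apart from the other lines in several epithelial and fibroblast markers, though not in all. The summed signal of the 7 annotated epithelial markers (of 10 listed) was 109312 to 114499 in MII, 65750 to 66860 in MIII and 108210 to 118369 in MIV. CDH1, the epithelial cadherin, averaged 12055 ± 304 in MII, 1304.7 ± 32.7 in MIII and 7288 ± 149 in MIV (errors are SDs of 3 arrays). KRT5 was near level, at 25794 in MII, 26308 in MIII and 25069 in MIV, and KRT14 was lowest in MIV. The 6 fibroblast markers summed to 372 to 478 in MII, 4457 to 4747 in MIII and 346 to 387 in MIV, with DCN, LUM, COL3A1 and THY1 called higher in MIII than in either other line, COL1A1 at 243 in MII, 213 in MIII and 222.5 in MIV, and PDGFRA under the pooled median in all lines. The part of these markers in the ERBB2 and ERBB3 results was not tested. In RNA of whole cultures, fewer cells that make a transcript and less of it per cell cannot be told apart.

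Sequence upstream of the start is shown for the called genes ERBB2, HBEGF and EREG, so that the letters of the region stand beside the expression values. Of the other called genes, ERBB3 has no entry in the promoter reference used, and NRG1 was left out of this step. The 250 bases upstream of the annotated start were read from RefSeq (GRCh38.p14). For each of these genes the reference holds 1 start, at the outer end of the annotated gene span. Other starts inside the gene, and other genes that may overlap the window, were not looked at. Capitals mark matches, on either strand, to the TATA box TATAAA, the AP-1 site TGANTCA, the ETS site CCGGAA, the AP-2 site GCCNNNGGC, the GC box GGGCGG and the E-box CAGGTG.
ERBB2 (chr17:39687844-39688093, plus strand): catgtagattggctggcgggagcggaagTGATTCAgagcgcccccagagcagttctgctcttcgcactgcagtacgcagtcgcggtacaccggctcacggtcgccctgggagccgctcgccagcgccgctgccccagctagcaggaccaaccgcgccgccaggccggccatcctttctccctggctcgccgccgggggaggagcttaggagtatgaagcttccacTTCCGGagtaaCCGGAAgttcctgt
HBEGF (chr5:140346604-140346853, minus strand): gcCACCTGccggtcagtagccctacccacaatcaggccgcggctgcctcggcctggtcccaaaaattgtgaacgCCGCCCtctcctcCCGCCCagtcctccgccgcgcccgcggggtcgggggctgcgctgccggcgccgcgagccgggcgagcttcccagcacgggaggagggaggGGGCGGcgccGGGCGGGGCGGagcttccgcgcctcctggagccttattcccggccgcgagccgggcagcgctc
EREG (chr4:74364895-74365144, plus strand): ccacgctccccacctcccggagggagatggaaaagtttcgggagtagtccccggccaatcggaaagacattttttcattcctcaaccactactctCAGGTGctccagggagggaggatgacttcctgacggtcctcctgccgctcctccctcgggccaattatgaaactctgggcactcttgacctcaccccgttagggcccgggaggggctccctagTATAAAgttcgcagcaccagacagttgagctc
The ERBB2 window holds 1 AP-1 match, 222 bases before the start, and 2 ETS matches at 25 and 14 bases before it. HBEGF has 5 GC boxes, of which the last pair shares a base, and 1 E-box at the far end. EREG has a TATA box 32 bases before its start and an E-box at 155 bases. Matches of different motifs did not overlap in these windows. Of the 35116 RefSeq windows of this length, 6.57% hold the AP-1 letters, 14.5% the ETS letters, 42.6% the GC box, 10.7% the TATA box, 17.5% the E-box and 19.8% the AP-2 letters. A match describes the letters and is no evidence that a factor binds there.

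EREG (epiregulin), a ligand of EGFR and ERBB4, was the ligand with the widest range of line means, 1.60 in log2. Its signal was 1483, 1489.7 and 1395.3 in MII, 3519.7, 3486.8 and 4226 in MIII, and 4459.6, 4513.4 and 4405.5 in MIV. No array of one line overlapped another line, and the order was MII, MIII, MIV from low to high. EREG rose in MIV against MII by 1.60 ± 0.07, or 3.04-fold (limma adjusted p = 6.22e-10), and in MIII against MII by 1.35 ± 0.07 (limma adjusted p = 2.24e-09). Between MIV and MIII the log2 change was 0.26 ± 0.07 (limma adjusted p = 0.00751), short of 2-fold. The second probe set was dimmer, at 58.4, 75.8 and 38 in MII, 223.4, 239.2 and 236.6 in MIII, and 211.1, 162.3 and 165.3 in MIV. It was called higher than MII in both MIV (1.41 ± 0.21) and MIII (1.76 ± 0.21), and placed MIV below MIII, with -0.35 ± 0.21 (limma adjusted p = 0.194).

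HBEGF, a heparin-binding ligand of EGFR and ERBB4, was highest in MIV and lowest in MIII. Its signal was 1671.3, 1669.1 and 1445.2 in MII, 1113.9, 1069.5 and 1287.1 in MIII, and 2802.7, 2776.4 and 2543.4 in MIV. The lines did not overlap. HBEGF rose in MIV against MIII by 1.22 ± 0.08, or 2.32-fold (limma adjusted p = 3.11e-08). Against MII, the log2 change was 0.76 ± 0.08 in MIV (limma adjusted p = 6.37e-06) and -0.46 ± 0.08 in MIII (limma adjusted p = 0.000422), both short of 2-fold. A second probe set agreed in each direction, with 1.54 ± 0.10 for MIV over MIII, 0.76 ± 0.10 for MIV over MII and -0.78 ± 0.10 for MIII over MII. The other 2 HBEGF probe sets lay under the pooled median on all 9 arrays.

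NRG1 (neuregulin 1), a ligand of ERBB3 and ERBB4, was called higher in MIV on 1 of its 4 probe sets that passed the filter. That probe set gave 169.5, 200.9 and 199.1 in MII, 129.1, 159.9 and 210.9 in MIII, and 458.2, 384.7 and 469.4 in MIV. All MIV arrays were above those of the other lines, which overlapped. The log2 change was 1.32 ± 0.17 in MIV against MIII (limma adjusted p = 1.87e-05) and 1.13 ± 0.17 in MIV against MII (limma adjusted p = 0.000124). None of the other probe sets was called, and they differed in direction. One of them was also highest in MIV on average, with 0.35 ± 0.29 for MIV over MIII and 0.57 ± 0.29 for MIV over MII. The only suffix-free one that passed gave 51.2, 74.2 and 38.9 in MII, 117, 100.5 and 114.3 in MIII, and 33.8, 57 and 86.9 in MIV. On it, MIV against MIII was -0.79 ± 0.30 (limma adjusted p = 0.0469 over all probe sets) and MIV against MII 0.06 ± 0.30. The NRG1 calls were also lost when all probe sets were averaged (0.40 and 0.72), and the call against MII was lost with an offset at the pooled median (0.97).

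TGFA (transforming growth factor alpha), a ligand of EGFR, was called in no comparison on any of its 3 probe sets. Its signal was 1890.4, 1973.5 and 1970.5 in MII, 1692.3, 1740.3 and 1857.8 in MIII, and 2152.3, 2174.2 and 2154.9 in MIV. The lines did not overlap, yet MIV against MIII was 0.29 ± 0.06 in log2 (limma adjusted p = 0.000767) and MIV against MII 0.15 ± 0.06 (limma adjusted p = 0.0517). The 95% intervals, 0.17 to 0.42 and 0.03 to 0.28, lie below a 2-fold change, which is 1 in log2. Its dimmer probe sets had -0.05 ± 0.23 and -0.07 ± 0.16 for MIV over MII, opposite in sign. For MIV over MIII they had -0.08 ± 0.23 and 0.44 ± 0.16.

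BTC (betacellulin), a ligand of EGFR and ERBB4 that lies beside EREG and AREG on chromosome 4, was dim. Its brighter probe set gave 210.6, 203.5 and 120.3 in MII, 211, 334.6 and 278.7 in MIII, and 159.2, 169.7 and 150.9 in MIV. It was called in no comparison. The log2 change was -0.70 ± 0.21 for MIV over MIII (limma adjusted p = 0.0143), -0.11 ± 0.21 for MIV over MII (limma adjusted p = 0.73) and 0.59 ± 0.21 for MIII over MII (limma adjusted p = 0.0361). Without MII replicate 1, the value of MIV against MII turned to 0.02. Without MII replicate 3, BTC had 0.36 for MIII over MII (limma adjusted p = 0.161). The dimmer BTC probe set averaged 88.2 in MII, 90.6 in MIII and 65.7 in MIV and was not called either. On it, MIII against MII was 0 ± 0.34 and MIV against MIII -0.28 ± 0.34 (limma adjusted p = 0.994 and 0.538 over all probe sets).

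ERRFI1 (MIG6), which binds the EGFR kinase domain and blocks its activity, was lowest in MIV on its single probe set. Its signal was 6888.9, 7050.1 and 7224.5 in MII, 7826.6, 8144.9 and 8208.7 in MIII, and 5320.1, 5191.3 and 5406.9 in MIV. The lines did not overlap, but no change reached 2-fold. The log2 change was -0.60 ± 0.04 in MIV against MIII (limma adjusted p = 7.79e-08) and -0.41 ± 0.04 in MIV against MII (limma adjusted p = 6.22e-06). In MIII against MII it was 0.19 ± 0.04 (limma adjusted p = 0.00287).

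Across the 9 genes, 5 had their lowest line mean in MIII (ERBB2, ERBB3, HBEGF, TGFA and NRG1) and 5 their highest in MIV (ERBB2, EREG, HBEGF, TGFA and NRG1). The share of all genes with these places was not computed, so the counts describe the order of means only. These places are those of the brightest probe set. The dimmer TGFA probe sets averaged 251.5 and 255 in MII, above 232 and 243 in MIV. The second EREG probe set was highest in MIII. Some places rest on overlapping arrays: ERBB2 had 0.13 ± 0.08 in MIV against MII, and NRG1 -0.19 ± 0.17 in MIII against MII, neither called. BTC and ERRFI1 had the reverse order, highest in MIII and lowest in MIV. Arrays that do not overlap between lines were common in the whole table: this held for 58.8% of genes between MIV and MIII, 50.7% between MIV and MII and 55.3% between MIII and MII. The exact two-sided permutation test of 3 arrays against 3 cannot go below p = 0.1, which it reached wherever the arrays did not overlap.

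**Figure D2:**
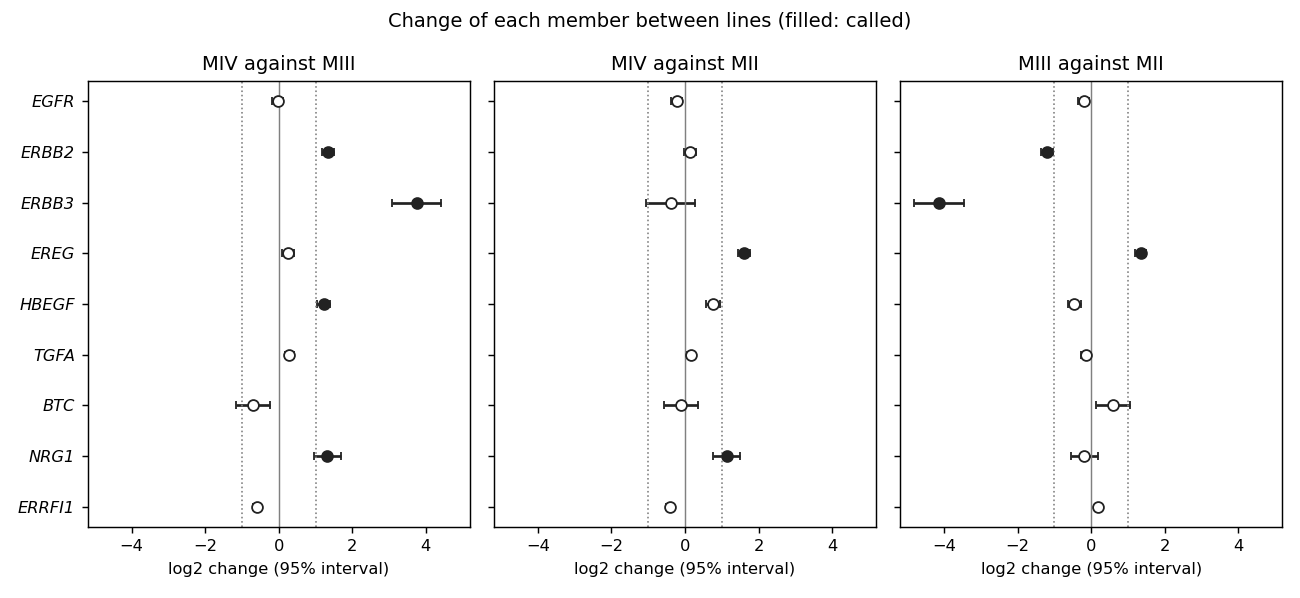
log2 change of each gene in the 3 comparisons of lines (points; bars are 95% intervals from limma, 3 arrays per line), with dotted lines at 2-fold and filled points for called genes. ERBB3 moves farthest, at 3.75 and -4.14, and EGFR stays near 0 in each panel.

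**Figure D3:**
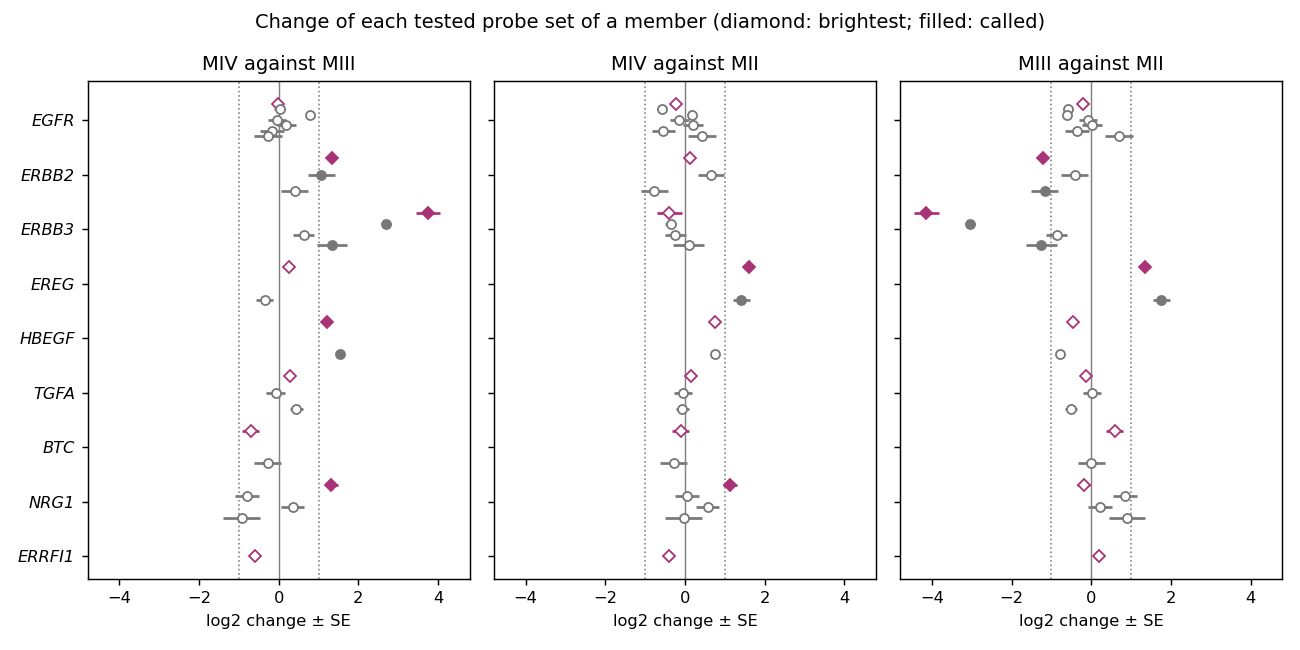
log2 change (± SE) of each of the 28 probe sets that passed the filter, by gene and comparison; diamonds are the brightest probe set of a gene, circles the others, and filled symbols were called. All plotted probe sets of ERBB2, ERBB3 and HBEGF lie above 0 in MIV against MIII, while those of NRG1 and EREG lie on both sides there.

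The genes with the pattern most like that of ERBB3 over the 9 arrays, by Pearson correlation of log2 values, were COBL, which nucleates actin (r = 0.9958), the glycosyltransferase B3GNT3 (r = 0.9944) and TMEM161B (r = 0.9944). COBL averaged 1000.2 in MII, 68.6 in MIII and 826 in MIV. For EREG they were MARCKS, a membrane-bound substrate of protein kinase C (r = 0.9974), FYTTD1, an mRNA export factor (r = 0.9954), and the kinase anchor AKAP12 (r = 0.9951). AKAP12 averaged 905 in MII, 4736 in MIII and 5861 in MIV. With 3 lines, these correlations rest on little more than 3 line means and describe the pattern only.

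Of the other family genes, 5 of 6 had a probe set annotated to that gene alone, and 1 was tested. NRG4, a ligand of ERBB4, fell to 50.5 ± 21.7 in MIV, against 203.5 ± 53.3 in MII (SD, n = 3 each), a log2 change of -1.71 ± 0.28 (limma adjusted p = 0.000248). It was -0.90 ± 0.28 in MIV against MIII and -0.81 ± 0.28 in MIII against MII, not called. ERBB4 and EGF stayed under the pooled median on all arrays, with highest signals of 59.7 and 68, and so did NRG3, at 42.3. NRG2 exceeded it on fewer arrays than the filter asks for, with a highest signal of 95.8.

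Of 8 tested genes that act in ligand release, 1 rose (RHBDF2) and 1 fell (TIMP3) in MIV against MIII, where 12.7% of all genes tested were called. For the next comparisons, MIV against MII and MIII against MII, those shares were 8.14% and 11.7%. Against MII, TIMP3 fell in MIV and 0 rose, with 3 higher and 3 lower at an unadjusted limma p under 0.05. In MIII against MII, RHBDF1 fell and 0 rose, with the same unadjusted counts. RHBDF2, which escorts the sheddase ADAM17 to the surface, had 1023 ± 41.5 in MIV, against 408 ± 52.9 in MIII (1.30 ± 0.13 in log2, limma adjusted p = 1.46e-06). Against MII it had 0.98 ± 0.13 in MIV, just under 2-fold. TIMP3, an inhibitor of ADAM17 and other metalloproteases, had 35.2 ± 7.1 in MIV, against 1865 ± 90.0 in MIII and 976 ± 113 in MII, at least 26.9-fold and 14.0-fold lower in MIV. RHBDF1, a relative of RHBDF2, fell in MIII against MII (-1.10 ± 0.11), a call lost with an offset at the pooled median. ADAM17 was called in no comparison, with 1447 ± 83.6 in MIV, against 1529 ± 9.1 in MIII.

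Of 14 tested adaptors and first signalling enzymes, 2 rose and 1 fell in MIV against MIII, 1 rose and 1 fell in MIII against MII, and 0 were called in MIV against MII, where limma gave 3 higher and 6 lower at an unadjusted p under 0.05. Of all genes tested, 12.7%, 11.7% and 8.14% were called in these comparisons, in that order. GRB7, an adaptor of ERBB2 and ERBB3 whose gene lies close to ERBB2, had 1229 ± 75.1 in MIV, against 194 ± 38.5 in MIII (2.57 ± 0.14, limma adjusted p = 2.7e-09). It fell in MIII against MII (-1.66 ± 0.14). PIK3R1, the regulatory subunit of PI3-kinase, went the other way, with 571 ± 28.0 in MIV, against 2803 ± 205 in MIII (-2.26 ± 0.10), and 1.64 ± 0.10 in MIII against MII. GAB1, a docking protein below EGFR, rose in MIV against MIII by 1.09 ± 0.16, a call lost with averaged probe sets (0.74) or an offset at the pooled median (0.86).

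Of 14 tested genes that restrain the receptors, CBLC alone was called, in MIV against MIII and in MIII against MII. Of all genes tested, 12.7% and 11.7% were called in these comparisons. This ubiquitin ligase of the CBL family had 1551 ± 114 in MIV, against 407 ± 37.6 in MIII (1.89 ± 0.08, limma adjusted p = 3.18e-10). It fell to that level in MIII, against 1678 ± 7.63 in MII (limma adjusted p = 1.77e-10). Between MIV and MII, 0 genes of the list were called, with 3 higher and 4 lower at an unadjusted limma p under 0.05.

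Of 13 genes known to be induced through ERK, 3 rose between MIV and MIII (DUSP5, IER3 and SPRED2, higher in MIV), 2 between MIV and MII (DUSP5 and EGR1, higher in MIV) and 2 between MIII and MII (DUSP6 and ETV5, higher in MIII), and 0 fell in any comparison. At an unadjusted limma p under 0.05, 7 were higher and 3 lower, 10 higher and 1 lower, and 6 higher and 5 lower, in that order of comparisons. The share of all genes at that threshold was not computed. At a limma adjusted p under 0.05 without a fold minimum it was already 51.9%, 42.2% and 47.2%, so passing was common in the whole table. DUSP5, a nuclear ERK phosphatase, had 2130 ± 133 in MIV, against 631 ± 55.8 in MIII (1.73 ± 0.08) and 948 ± 29.1 in MII (1.15 ± 0.08). IER3, an early response gene, rose by 1.19 ± 0.05 and SPRED2, an inhibitor of RAF activation, by 1.06 ± 0.06 in MIV against MIII. EGR1, an early response transcription factor, rose in MIV against MII by 1.25 ± 0.06. DUSP6, a cytoplasmic ERK phosphatase, rose in MIII against MII by 1.15 ± 0.06, and the ETS factor ETV5 by 1.45 ± 0.07, a call lost on its suffix-free probe set (0.97). The median log2 change of the list was 0.27 for MIV over MIII (-0.012 for all genes tested, of which 4.95% were called higher). It was 0.62 for MIV over MII (-0.027 and 2.96%) and 0.19 for MIII over MII (-0.016 and 6.17%).

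**Figure D4:**
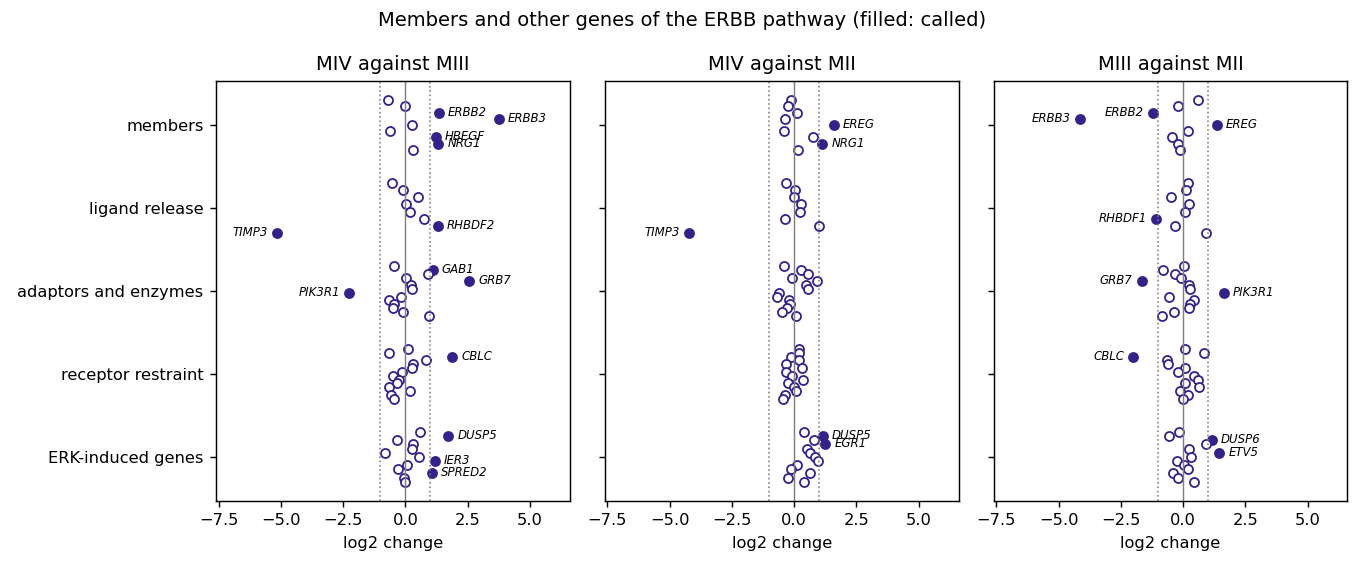
log2 change of the 9 genes and of 4 lists of other pathway genes in the 3 comparisons; each point is a gene, filled and named where called, and dotted lines mark 2-fold. GRB7 and CBLC lie on the side of ERBB2 and ERBB3 in both comparisons with MIII, and PIK3R1 on the opposite side.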

How the data were processed

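The authors deposited linear signal intensity computed with MAS5, as the submitters' processing notes name it; its version and the detection calls are not given in the sources used here. Each array had a 2% trimmed mean of 500.07, so no scaling was added. Of 54675 probe sets, 62 were controls, 41091 had 1 gene, 1801 several and 11721 none in the array annotation; those with several or none were not named. Symbols were checked through gene numbers, of which 41037 matched the GRCh38.p14 table (0 changed).

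Signals were tested as log2(signal + 18.3), the offset being the pooled 25th percentile, which understates changes of dim genes. Genes with at least 3 of 9 arrays above the pooled median of 69.3 were kept. A group-means model with an intensity trend was fitted in limma 3.58.1 (R 4.3.3; 6 residual degrees of freedom), with Benjamini-Hochberg adjustment over 12594 genes, and again over 24455 probe sets. The fit was tested on simulated data. A bound ("at least") is the geometric mean of the brighter line over the pooled median. Errors of signals are SDs, those of log2 changes limma's SEs.

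Named were all members; up to 3 called genes per pathway list and comparison; and the 3 genes most correlated with the receptor and the ligand of widest range. Members and lists were chosen with earlier results of these data known. Alternatives were other offsets, normalizations, filters, probe sets, variance priors, array weights, thresholds, a replicate block, pairs of lines alone, and leaving out each array.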

Additional observations from a re-analysis of the deposited data

How the results depend on the processing

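Each member's log2 changes were recomputed under 21 or 22 alternatives. ERBB2 could not be fitted on suffix-free probe sets, nor NRG1 and BTC with the filter at the pooled 75th percentile, so these have 21. Of the values, 574 kept their direction and their side of the threshold, 4 lost the call without turning and 7 turned. Among those that turned, NRG1 in MIV against MIII on the suffix-free probe set (-0.79) also lost its call. The called values of ERBB2 ran from 1.27 to 1.40 in MIV against MIII and from -1.26 to -1.15 in MIII against MII, those of HBEGF from 1.16 to 1.30 in MIV against MIII, and those of EREG from 1.57 to 1.65 in MIV against MII. The exceptions were NRG1, EGFR and BTC, and the cause was not tested. NRG1 lost its calls with averaged probe sets (0.40 for MIV over MIII, 0.72 for MIV over MII), on the suffix-free probe set (-0.79 and 0.06) and, in MIV against MII, with an offset at the pooled median (0.97). Its uncalled change in MIII against MII turned to 0.32 with averaged probe sets and to 0.85 on the suffix-free one. The uncalled change of EGFR in MIV against MIII turned to 0.09 with averaged probe sets, 0.02 on the suffix-free one and 0.01 without MIII replicate 2 (-0.06 to 0.01 over the arrays left out in turn), and that of BTC in MIV against MII to 0.02 without MII replicate 1 (-0.34 to 0.02).

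Members called in MIV against MIII numbered 4, but 3 with the filter at the pooled 75th percentile or with averaged probe sets (NRG1 lost), 2 on suffix-free probe sets, where ERBB2 has none and could not be fitted, 8 without a fold minimum and 1 at the stricter threshold of 4-fold with an adjusted p under 0.01. In MIV against MII they numbered 2, but 1 with the offset at the pooled median, with the filter at the pooled 75th percentile, with averaged or with suffix-free probe sets, 5 without a fold minimum and 0 at the stricter threshold. In MIII against MII they numbered 3, but 2 on suffix-free probe sets, 7 without a fold minimum and 1 at the stricter threshold. Leaving out each array in turn gave 4, 2 and 3 members throughout. Over all genes, without a fold minimum 6530, 5310 and 5946 were called in the 3 comparisons in this order, at the stricter threshold 515, 257 and 499, with the filter at the pooled 75th percentile of 435.7 893, 535 and 810, and in MIV against MII 681 with the offset at the pooled median. Leaving out each array gave 1429 to 1599, 931 to 1017 and 1300 to 1472.

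With the replicate number as a block, members called were again 4, 2 and 3. Same-numbered arrays correlated between -0.039 and 0.039 in their deviations from line means, 0 of 9 pairs over 0.1, and 3 of 9 arrays correlated best with their own number, so the numbers were not taken as pairs. Signals near the pooled median, as for ERBB3 in MIII or the dimmer NRG1 and ERBB2 probe sets, limit what ratios can show. For the called genes of the other pathway lists, the same alternatives were added after seeing the data: 403 values kept their call and 4 lost it (GAB1 under 2 settings, RHBDF1 and ETV5 under 1 each). Settings in which a gene could not be fitted were not counted. On suffix-free probe sets this held for CBLC, TIMP3, GRB7, RHBDF1, EGR1 and IER3.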

Other observations

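The neighbourhood of ERBB2 was looked at after its values and those of GRB7 had been seen. Of the 5 annotated genes on either side of ERBB2 on chromosome 17, 6 were tested, and PPP1R1B and GRB7 were called higher in MIV than in MIII. Of all genes tested, 4.95% were called higher in that comparison. PPP1R1B, an inhibitor of protein phosphatase 1, had 1007 ± 40.8 in MIV, against 161 ± 29.2 in MIII and 254 ± 37.9 in MII (SD, n = 3 each; log2 changes of 2.53 ± 0.15 and 1.92 ± 0.15). MIEN1, the gene next to ERBB2, had 3897 ± 62.4 in MIV, against 2563 ± 82.4 in MIII, a log2 change of 0.60 ± 0.05 that is short of 2-fold. STARD3 and PGAP3 had 0.21 ± 0.17 and 0.27 ± 0.18 in that comparison.

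Around ERBB3 on chromosome 12, 9 of 10 neighbours were tested, and their log2 changes in MIV against MIII lay between -0.84 (MYL6B) and 0.03 (RPL41), beside 3.75 for ERBB3. Around EREG on chromosome 4, 7 of 10 neighbours were tested. Called higher than in MII were 3 in MIII and 1 in MIV, and 2 were lower in MIV than in MIII. Of all genes tested, 6.17%, 2.96% and 7.79% were called in those directions. Next to EREG, the locus LOC105377276 averaged 114.5 ± 5.98 in MIV and 153 ± 27.6 in MIII, against 37.7 ± 25.8 in MII. Like EREG, it was called higher than in MII in both MIV (1.38 ± 0.34) and MIII (1.74 ± 0.34). Farther from EREG, the chemokine genes CXCL2 and CXCL3 were called higher in MIII than in MII, by 2.74 ± 0.14 and 1.85 ± 0.18. In MIV against MII, where EREG rose, they had -0.42 ± 0.14 and -0.76 ± 0.18, not called. Near HBEGF on chromosome 5, 7 of 10 neighbours were tested. CYSTM1 alone was called, higher in MIV than in MIII (1.58) and than in MII (1.03). Of all genes tested, 4.95% and 2.96% were called higher in these comparisons. Neighbours of uncalled members were called too. Near EGFR, with 7 tested, COBL had 3.38 ± 0.25 in MIV against MIII. Near TGFA, with 6 tested, ADD2 had -3.26 ± 0.27 in that comparison.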
